A study of Arabidopsis thaliana with 8 samples.

Results

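The 184 Arabidopsis thaliana genes described here had lower transcript levels in npr1-1 seedlings labelled as treated with salicylic acid (SA) than in npr1-1 seedlings labelled as given water, while the same treatment left their level in the wild type nearly where it was. They were taken from 13356 genes with a probe set of their own in the annotation used for the Affymetrix ATH1 array. A gene with several such probe sets stands by the brightest. Of 22746 probe sets, 8730 had no gene listed in that annotation. A difference of −1 or beyond between the npr1-1 labels was held by 3.84% of all genes. A member had a group mean lower by at least 1 on the log2 scale under the npr1-1 SA label and a Col-0 difference between −0.4 and 0.4. The rule leaves out 4 genes by name, of which 2 met both thresholds. These differences chose the genes, so their values are a description and carry no test.

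RNA came from whole seedlings of 2 genotypes, wild-type Col-0 and npr1-1, a mutant with a point mutation in NPR1. Seedlings aged 2 weeks and grown in MS medium had that medium replaced by water or by 2 mM SA for 24 h in the light. Each of the 4 groups (Col-0 water, Col-0 SA, npr1-1 water, npr1-1 SA) was hybridized to 2 arrays labelled as biological replicates, so a p-value here measures the spread between such arrays. The values are log2 expression values as deposited, on which a difference of 1 is a change of 2-fold. A whole seedling mixes many cell types, so that fewer cells of a type and less RNA per cell cannot be told apart.

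SA is a plant hormone that accumulates when a pathogen is recognised, and it is required for systemic acquired resistance. NPR1 binds SA and acts in the nucleus as a coactivator with TGA transcription factors, which carry it to the promoters of defense genes. The npr1-1 allele disrupts the protein and plants that carry it lose most of the induction of defense genes by SA. NPR1 itself is not analysed here.

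Among the 184 genes the median npr1-1 difference was −1.27, a level 2.42-fold lower by label, and the differences ran from −1.0 to −4.15. The difference was −1.5 or beyond in 51 genes and −2 or beyond in 15. In Col-0 the SA minus water difference was above 0 in 123 and below 0 in 61. The median level of the 184 genes was 3.82 and 3.91 on the Col-0 water arrays, 4.02 and 3.96 on the Col-0 SA arrays, 4.37 and 4.3 on the npr1-1 water arrays, and 2.97 and 3.06 on the npr1-1 SA arrays. The Col-0 arrays thus lay between the 2 npr1-1 groups. Over all 22746 probe sets the array medians stayed between 1.34 and 1.48.

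**Figure D1:**
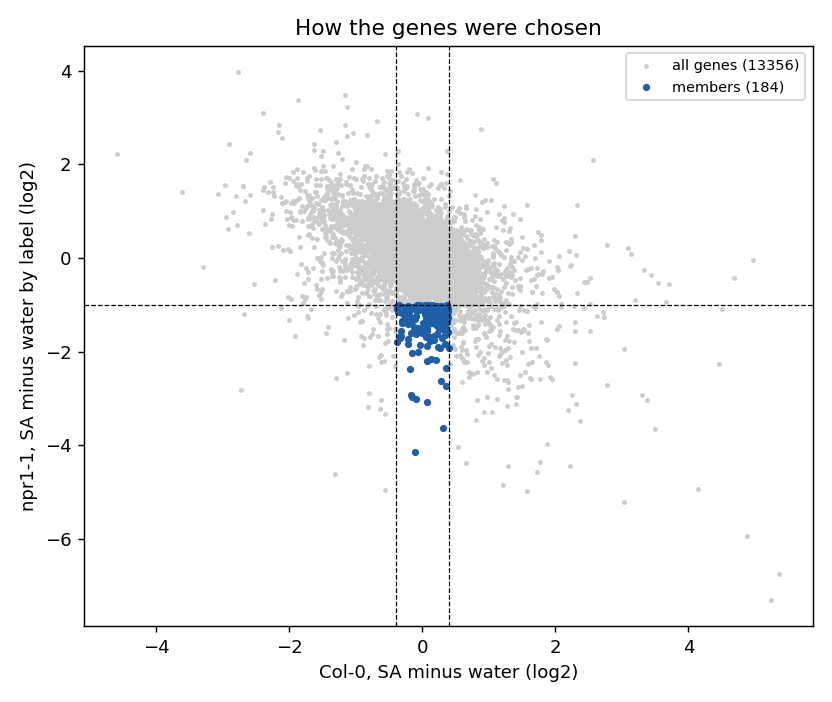
SA minus water by label in Col-0 (x axis, log2) and in npr1-1 (y axis, log2) for 13356 genes (grey) and the 184 members (blue), with the thresholds of the rule as dashed lines. The members fill the band between −0.4 and 0.4 in Col-0, most of them between −1 and −2 in npr1-1, and the lowest at −4.15 is AT3G51450.

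Just inside the npr1-1 threshold lay AT4G26620 and AT3G58550, at −1.002 and −1.004, and AT4G21720 at −1.006. Just outside it were AT3G19240 at −0.996, AT1G26640 at −0.995 and AT1G03370 at −0.994. The members nearest the Col-0 threshold were AT1G76960 at 0.40, AT5G57580 at 0.39 and AT3G19970 at −0.38. The nearest genes left out were AT1G78280 at −0.41, AT3G04480 at 0.41 and AT5G52050 at −0.41. The genes were picked as nearest to a threshold, so those on either side had nearly the same difference by choice, whatever their levels.

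The rule was also read on 1 replicate number at a time, a check added after the values were seen. Each reading used 1 array per group, and the replicate numbers do not pair the arrays. The same arrays together chose the members. The counts below therefore describe how alike the arrays of a group were, and they are no separate test of the members. On the arrays numbered 1 it chose 231 genes, of which 226 had an npr1-1 difference below 0 on the arrays numbered 2, where 53.1% of all genes were below 0. Their median difference was −1.29 where they were chosen and −1.06 on the other arrays, with 129 at −1 or beyond. Of the 175 genes chosen on the arrays numbered 2, 174 were below 0 on those numbered 1 (43.9% of all genes), with a median of −1.19 and 114 at −1 or beyond. The genes that met the whole rule on both sets of arrays, each read alone, numbered 78.

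Several measurements of the arrays bear on these values. Replicate arrays correlated at r of 0.994 to 0.996, and arrays of different groups at 0.922 to 0.966. Over all probe sets the SA minus water differences of the 2 genotypes correlated at −0.50 (a description, as the probe sets share the arrays). UGT76B1, a glucosyltransferase that acts on SA and no member, had means of 4.79 in Col-0 water and 9.66 in Col-0 SA, but 8.90 in npr1-1 water and 2.96 in npr1-1 SA. Since the npr1-1 groups ran against Col-0 in this way, the npr1-1 arrays are named strictly by their labels, and whether the labels were exchanged was not tested. The difference between the 3′ and 5′ actin control probe sets, a sign of RNA integrity, averaged 3.66 in Col-0 water and 5.0, 5.08 and 5.01 in Col-0 SA, npr1-1 water and npr1-1 SA. The single npr1-1 arrays were at 4.09 and 6.07 in water and 5.41 and 4.62 in SA on this measure, so these groups overlapped. The 3′ to 5′ difference of ubiquitin did separate them, at 0.77 and 1.15 in npr1-1 water and 1.87 and 1.42 in npr1-1 SA. It was 0.98 and 1.08 in Col-0 water and 1.55 and 1.38 in Col-0 SA, where the members were flat by the rule. The part of these values in the members' differences was not tested. Markers were listed for root, leaf and epidermis, vasculature, and pollen and flower. Of these, 2 of 24, 4 of 20, 0 of 20 and 2 matched a probe set with 1 gene listed. The others may be on the array among the 8730 probe sets without a gene listed. The root markers EXPA7 and AGL42 had group means of at most 0.66, and the leaf epidermis gene FDH had means of 7.77, 6.91, 7.05 and 6.84 in the order of groups above. The 4 leaf and epidermis markers were also summed on a linear scale. The arrays then read 225 to 227, 122 to 130, 130 to 149 and 108 to 135 in that order. MUTE, FMA and SPCH had group means of at most 2.09, so this sum is mostly FDH and does not show a joint fall of the markers. In the median of the 4 markers the groups overlapped. The part of these marker levels in the members' values was not tested.

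The comparison of npr1-1 with Col-0 over both treatments asks whether the members differ in level between the genotypes. It does not use the differences that chose the members, and its value is the same whichever npr1-1 group is read as SA. For dim members its direction is still set in part by the rule. A gene near the bottom of the scale in Col-0 can meet the rule only with a high npr1-1 water value, which raises the genotype difference. Of the 66 members with a mean level under 3, 34 were called higher and 7 lower. The direction of those calls is therefore a description and not a separate test. In limma with Benjamini-Hochberg adjustment over all 22746 probe sets, 37.8% of probe sets passed an adjusted p of 0.05, 21.3% as higher in npr1-1 and 16.5% as lower. With one probe set per gene, 33.8% of the 13356 genes passed, 19.7% higher and 14.1% lower. Of the 184 members 126 passed (68.5%), of which 59 were higher in npr1-1 (32.1%) and 67 lower (36.4%), while 58 were not called. These shares are not matched for level, and the members were brighter than most genes. Above a mean level of 5, 16 of 51 members and 463 of 1434 of all genes were not called. At 3 to 5 these were 17 of 67 and 829 of 2203, and under 3 they were 25 of 66 and 7550 of 9719. Without moderation of the variances 38 members were higher and 55 lower, while the calls over all probe sets went from 4847 to 3312 higher and from 3747 to 2666 lower. Of all calls on the array 56.4% were higher, and this share was 42.4% after centring each array on its median, where 49 members were higher and 71 lower.

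The 59 higher members had median levels of 2.52 in Col-0 water, 2.51 in Col-0 SA, 3.79 in npr1-1 water and 2.48 in npr1-1 SA. Their npr1-1 excess thus stood in the arrays labelled water, with a median genotype difference of 1.37 in water and −0.16 under SA, and 38 of the 59 lay within 0.4 of Col-0 under SA. The 67 lower members had medians of 5.22, 5.22, 5.15 and 3.65 in the same order. Their genotype difference had a median of 0.05 in water and −1.57 under SA, and 43 of the 67 lay within 0.4 of Col-0 in water. The 58 members not called had medians of 3.5, 3.38, 4.19 and 2.70, above Col-0 in water by a median of 0.72 and below it under SA by a median difference of −0.67. The genotype differences within one treatment share their arrays with the rule and are descriptions.

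**Figure D2:**
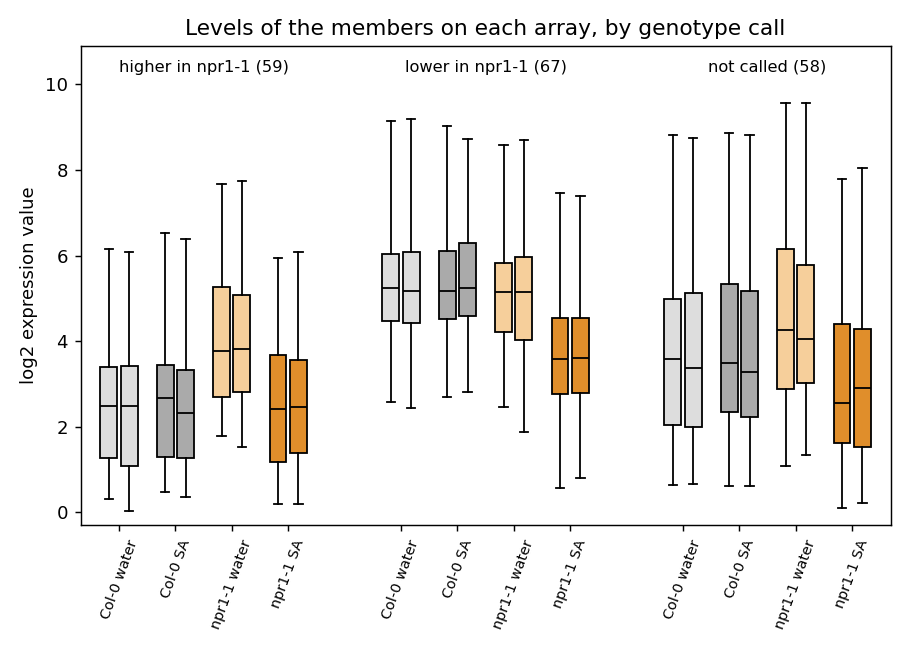
Log2 expression values of the members on each of the 8 arrays (one box per array, the pair of a group side by side), split by the genotype call. Boxes span the quartiles with the median as a line and whiskers reach the lowest and highest member. In the 59 higher members the npr1-1 water boxes stand above the others, and in the 67 lower members the npr1-1 SA boxes stand below them.

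Both npr1-1 water arrays exceeded all 4 Col-0 arrays for 126 of the 184 members, against 18.7% of all genes. Both npr1-1 SA arrays lay below all 4 Col-0 arrays for 134, against 18.4% of all genes. Both held for 76 members, and neither for 0, and the shares of all genes were not counted for these. A label difference of at least 1 around a nearly flat Col-0 leaves little room for neither. The npr1-1 arrays in these counts also chose the members, so nothing is read from the counts or from their excess over all genes. All 4 npr1-1 arrays lay above all 4 Col-0 arrays for 12 members (6.52%, against 10.5% of all genes), and all 4 lay below for 22 (12%, against 7.81%).

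**Figure D3:**
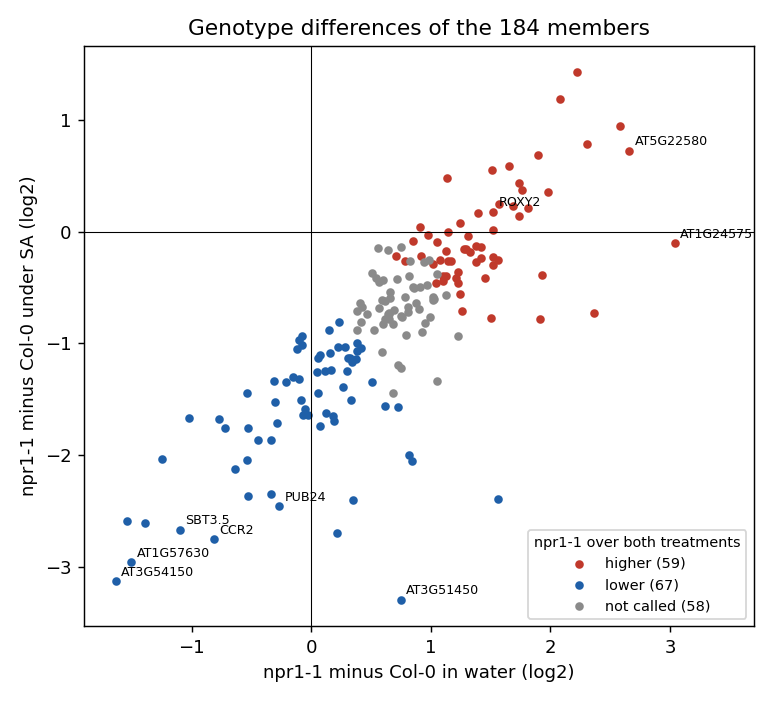
npr1-1 minus Col-0 in water (x axis, log2) and under SA (y axis, log2) for the 184 members, coloured by the call over both treatments. Higher members (59, red) lie mostly to the right near 0 under SA, lower members (67, blue) mostly below and near 0 in water, and members not called (58, grey) between them.

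The lower members with the smallest p were below Col-0 in both treatments. AT3G54150 had values of 5.30 and 5.27 in Col-0 water, 5.50 and 5.47 in Col-0 SA, 3.51 and 3.79 in npr1-1 water, and 2.42 and 2.29 in npr1-1 SA. All 4 npr1-1 arrays lay under all 4 Col-0 arrays, and the npr1-1 SA arrays were the lowest. It was lower in npr1-1 by a difference of −2.38 ± 0.09 (SE, 4 arrays per genotype; limma adjusted p = 1.13e-08). AT1G57630 read 7.13 and 7.04, 7.34 and 6.99, 5.59 and 5.57, and 4.12 and 4.28 in the same order of groups, again with no overlap between genotypes (difference −2.23, adjusted p = 2.24e-08 in limma). The same order was seen in AT5G14700 (−2.07), AT1G51620 (−2.0), AT1G64610 (−1.45) and AT1G69890 (−1.34). These loci carry no gene symbol in the annotations used and are given without a function.

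The higher members with the smallest p had most of their excess in the arrays labelled water, as the rule requires of any higher member. AT5G22580 read 2.81 and 2.83 in Col-0 water, 2.85 and 2.65 in Col-0 SA, 5.4 and 5.56 in npr1-1 water, and 3.47 and 3.48 in npr1-1 SA. Its Col-0 groups overlapped, and both npr1-1 groups lay above them, the water arrays furthest. It was higher in npr1-1 by 1.69 ± 0.09 (SE, 4 arrays per genotype; limma adjusted p = 6.76e-08). AT5G25840, which had the largest excess among the members (1.82), AT1G66940 (1.76), AT4G00780 (1.63), AT1G22690 (1.54), AT5G11420 (1.29) and AT2G20930 (1.01) likewise had both npr1-1 groups above Col-0. AT1G24575 differed from these, with 0.83 and 0.67, 0.84 and 0.81, 3.59 and 3.99, and 0.71 and 0.73, so that 1 group alone, npr1-1 water, stood apart from the other 3. Its genotype difference of 1.47 (adjusted p = 5.56e-07 in limma) therefore averaged 3.04 in water and −0.11 under SA.

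The members with the largest differences between the npr1-1 labels mostly lay above Col-0 in one group and below it in the other. AT3G51450 read 4.71 and 4.76 in Col-0 water, 4.52 and 4.74 in Col-0 SA, 5.45 and 5.51 in npr1-1 water, and 1.4 and 1.25 in npr1-1 SA. The drop below Col-0 was larger than the excess above it, and over both treatments the gene was lower in npr1-1 by a difference of −1.28 (limma adjusted p = 5.68e-07). AT5G52760, at 7.0 and 7.10, 7.43 and 7.30, 8.53 and 8.70, and 5.02 and 4.92, stood further above Col-0 in npr1-1 water than AT3G51450 did and less far below it in npr1-1 SA, and was called lower (difference −0.42, limma adjusted p = 0.00229). AT5G43910 stood apart in one group alone, with 5.56 and 5.38, 5.70 and 5.80, 5.70 and 5.68 in the first 3 groups and 2.98 and 3.13 in npr1-1 SA (−1.24). AT3G47480 was also called lower (−1.03), and AT4G03450 (0.82) and AT2G24160 (0.56) were called higher. AT1G74440, with a label difference of −2.18, was not called (−0.14, 95% interval −0.37 to 0.08).

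Some of these large label differences had calls near the threshold. AT4G23610 was lower, with a difference of −0.60 (limma adjusted p = 0.0242), and its npr1-1 SA arrays were far apart at 0.56 and 1.64. The adjusted p rose to between 0.0510 and 0.0961 when any one of Col-0 water 1, Col-0 water 2, Col-0 SA 1 or npr1-1 water 2 was left out. AT5G22530 was lower, with a difference of −0.59 (adjusted p = 0.0108 in limma), which became 0.0571 without Col-0 water 2 and 0.0568 without npr1-1 water 1. AT4G17670 was higher by 0.36 (adjusted p = 0.0128 in limma), which became 0.0619 without Col-0 water 1, 0.0565 without npr1-1 SA 1 and 0.0503 after median centring.

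A gene symbol was at hand for 23 of the 184 members. Of these 9 were higher in npr1-1, 8 lower and 6 not called. They are given below by what their products are known to do.

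**Figure D4:**
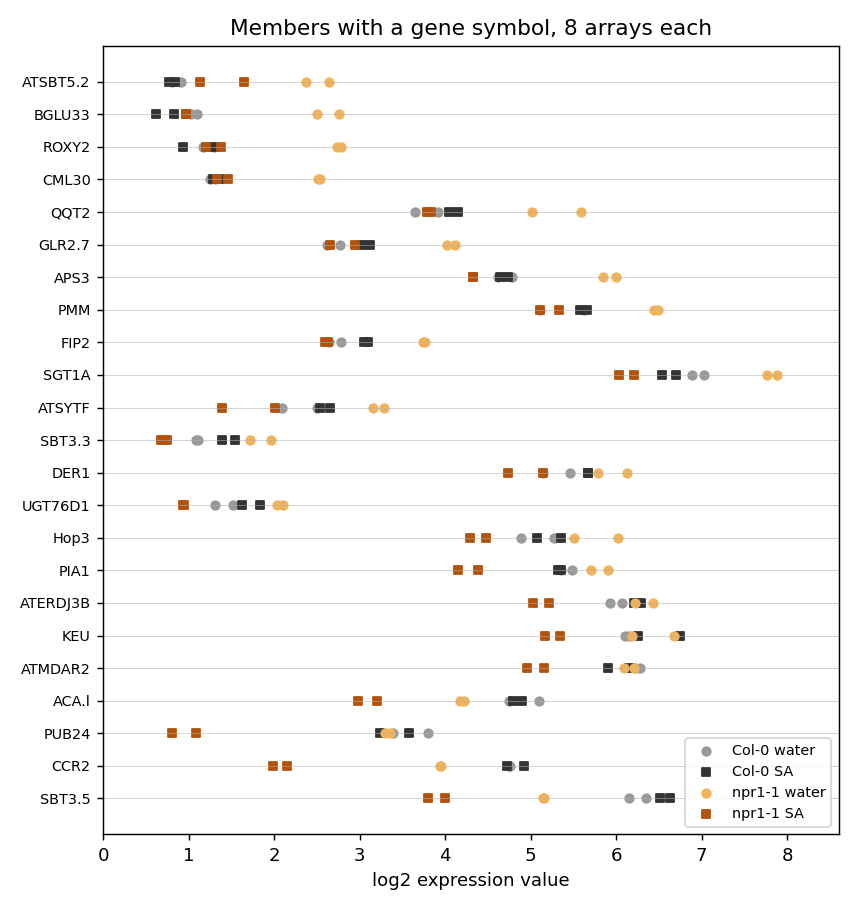
Log2 expression values (x axis) of the 23 members with a gene symbol on all 8 arrays, ordered by the npr1-1 minus Col-0 difference over both treatments, from SBT3.5 (−1.88) at the bottom to ATSBT5.2 (1.12) at the top. Circles are water and squares SA, grey and black Col-0, light and dark orange npr1-1, and each gene has 2 points per group. In SBT3.5, CCR2 and ACA.l all npr1-1 points lie left of Col-0, and in ATSBT5.2 all lie right of it.

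Among regulators of immunity, PUB24 encodes a U-box ubiquitin ligase that dampens responses to microbial patterns. It read 3.39 and 3.80 in Col-0 water, 3.24 and 3.57 in Col-0 SA, 3.29 and 3.36 in npr1-1 water, and 1.08 and 0.81 in npr1-1 SA. The first 3 groups overlapped and npr1-1 SA lay below them, and the genotype difference was −1.36 ± 0.12 (SE, 4 arrays per genotype; limma adjusted p = 2.96e-06). SGT1A, a co-chaperone of HSP90 in resistance signaling, read 6.89 and 7.02, 6.54 and 6.70, 7.88 and 7.76, and 6.03 and 6.20, above Col-0 in npr1-1 water and below it in npr1-1 SA. It was not called (0.18, 95% interval −0.02 to 0.38), but was after quantile normalization (limma adjusted p = 0.0199). PIA1, a protein phosphatase of the 2C type, was lower, with a difference of −0.34 (adjusted p = 0.0117 in limma), a call lost without Col-0 water 2 (0.0501) or npr1-1 SA 2 (0.0518).

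Secreted subtilisin-like proteases were represented by 3 members that differed in direction. SBT3.5 read 6.34 and 6.15 in Col-0 water, 6.63 and 6.51 in Col-0 SA, 5.14 and 5.16 in npr1-1 water, and 4.00 and 3.80 in npr1-1 SA. All its npr1-1 arrays lay below all Col-0 arrays (−1.88 ± 0.09, SE, 4 arrays per genotype; limma adjusted p = 3.5e-08). SBT3.3, a subtilase tied to immune priming, ran from 0.67 to 1.96 over the 8 arrays and was not called (0.00, 95% interval −0.20 to 0.19). ATSBT5.2 read 0.90 and 0.80, 0.84 and 0.77, 2.38 and 2.64, and 1.13 and 1.65, with all npr1-1 arrays above Col-0 at a low level. It was higher by 1.12 (adjusted p = 1.37e-05 in limma).

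Members for protein folding showed small genotype differences. ATERDJ3B, a DnaJ protein of the endoplasmic reticulum, read 5.93 and 6.07 in Col-0 water, 6.21 and 6.29 in Col-0 SA, 6.43 and 6.22 in npr1-1 water, and 5.03 and 5.21 in npr1-1 SA. Its npr1-1 water arrays overlapped those of Col-0 SA, and it was lower over both treatments, with a difference of −0.40 (adjusted p = 0.00397 in limma). DER1, a derlin of the pathway that removes misfolded proteins from the endoplasmic reticulum, was not called (−0.04, 95% interval −0.30 to 0.23). Another probe set of DER1 read 0.29 to 0.42 in the group means, near the bottom of the scale, with a label difference of 0.05. Hop3, which links HSP70 and HSP90, was not called either (−0.07, 95% interval −0.37 to 0.22).

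Enzymes of metabolism and redox balance were split between the calls. CCR2, a cinnamoyl CoA reductase of lignin synthesis, read 4.76 and 4.75 in Col-0 water, 4.92 and 4.72 in Col-0 SA, 3.95 and 3.94 in npr1-1 water, and 2.15 and 1.98 in npr1-1 SA. All npr1-1 arrays lay below Col-0, and the difference was −1.78 ± 0.09 (SE, 4 arrays per genotype; limma adjusted p = 4.19e-08). ATMDAR2, a monodehydroascorbate reductase that recycles ascorbate, was lower, with a difference of −0.54 (adjusted p = 0.000671 in limma), with its npr1-1 water arrays at 6.21 and 6.09 among the Col-0 arrays at 5.90 to 6.28. APS3, an ATP sulfurylase at the entry to sulfate assimilation, read 4.78 and 4.61, 4.64 and 4.74, 6.0 and 5.84, and 4.33 and 4.32, so that it stood above Col-0 in npr1-1 water and below it in npr1-1 SA. It was higher over both by 0.43 (adjusted p = 0.00179 in limma).

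BGLU33, of the beta-glucosidase family, read 1.1 and 1.02, 0.83 and 0.61, 2.50 and 2.76, and 0.96 and 0.97 in the order of groups above. Only its npr1-1 water arrays stood apart, and it was higher by 0.90 (adjusted p = 1.22e-05 in limma). PMM, a phosphomannomutase that supplies mannose units for glycosylation and ascorbate, was higher by 0.35 (adjusted p = 0.0316 in limma). That call was lost without any one array except Col-0 water 1 and npr1-1 SA 1, with an adjusted p of up to 0.132 without Col-0 water 2, and was 0.0999 after median centring. UGT76D1, a glycosyltransferase that acts on dihydroxybenzoic acids derived from SA, ran from 0.93 to 2.1 and was not called (−0.07, 95% interval −0.27 to 0.13).

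Among membrane, calcium and trafficking proteins, ACA.l, a P-type ATPase, read 5.09 and 4.74 in Col-0 water, 4.79 and 4.90 in Col-0 SA, 4.21 and 4.18 in npr1-1 water, and 2.98 and 3.2 in npr1-1 SA. All npr1-1 arrays lay below Col-0 (−1.24, limma adjusted p = 1.82e-06). GLR2.7, a glutamate receptor-like channel, was higher by 0.55 (adjusted p = 0.000629 in limma) with npr1-1 water arrays of 4.02 and 4.12 over Col-0 values of 2.62 to 3.12. CML30, a calmodulin-like protein, had npr1-1 water values of 2.51 and 2.53 while its other 6 arrays lay between 1.25 and 1.46, and was higher by 0.66 (limma adjusted p = 5.09e-05).

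KEU, a Sec1/Munc18 protein needed for vesicle fusion at the cell plate, read 6.15 and 6.11 in Col-0 water, 6.26 and 6.75 in Col-0 SA, 6.68 and 6.18 in npr1-1 water, and 5.35 and 5.17 in npr1-1 SA. It was lower, with a difference of −0.47 (adjusted p = 0.0142 in limma), a call that was lost without Col-0 SA 2 (0.0607), npr1-1 water 2 (0.0672) or npr1-1 SA 2 (0.0597). ATSYTF, a synaptotagmin-type lipid-binding protein, was not called (0.01, 95% interval −0.29 to 0.31).

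The remaining 3 genes with a symbol were called higher. ROXY2, a glutaredoxin known for its part in anther development, read 1.16 and 1.30 in Col-0 water, 0.93 and 1.28 in Col-0 SA, 2.78 and 2.73 in npr1-1 water, and 1.2 and 1.37 in npr1-1 SA. Its npr1-1 water arrays stood apart and the other 3 groups overlapped (0.85, adjusted p = 3.23e-05 in limma). QQT2, a GTP-binding protein needed in the embryo, was higher by 0.61 (adjusted p = 0.00195 in limma). FIP2, known as a partner of a formin, was higher by 0.29 (adjusted p = 0.0143 in limma), a call lost without Col-0 water 2 (0.0590), after quantile normalization (0.0638), after median centring (0.0739) and with a trended and robust variance (0.0555).

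The direction of the genotype difference went with the level of the gene. Of the 66 members with a mean below 3 over the 8 arrays, 34 were higher (51.5%) and 7 lower (10.6%). Of the 67 members at 3 to 5, 19 were higher (28.4%) and 31 lower (46.3%), and of the 51 above 5, 6 were higher (11.8%) and 29 lower (56.9%). Over all genes in the same ranges of level, 14.2%, 35% and 33.5% were higher and 8.12%, 27.4% and 34.2% lower. Across the 184 members, level and genotype difference had a Spearman correlation of −0.46 and a Pearson correlation of −0.38, against 0.09 and −0.01 across all 13356 genes. The genes share the same 8 arrays and are no replicates, so these are descriptions. At a low level the rule needs a high npr1-1 water value, as the scale ends near 0.

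**Figure D5:**
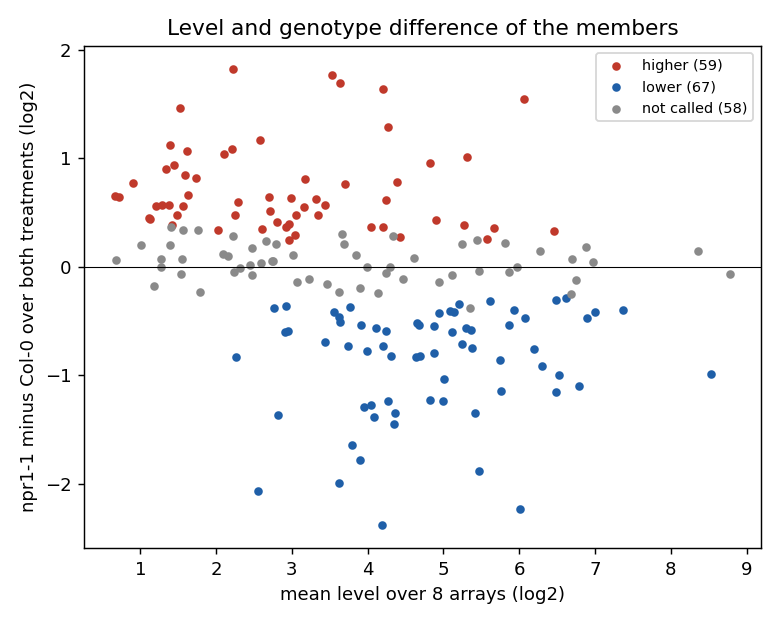
Mean level over the 8 arrays (x axis, log2) against the npr1-1 minus Col-0 difference over both treatments (y axis, log2) for the 184 members, coloured by call. Of the members below a level of 3, 34 are higher and 7 lower, and of those above 5, 6 are higher and 29 lower.

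The members were brighter than most genes, with a median level of 3.87 (quartiles 2.53 and 5.16) against 1.11 over all genes. A mean of 3 or more was reached by 118 of them (64.1%) and by 27.2% of all genes, and 20 members lay below 1.5. A probe set near the bottom of the scale cannot be lower by 1, so a part of this is fixed by the rule. On the array 183 members were read by a probe set designed for one transcript and 1 by a probe set that may bind several related ones.

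Genes that met the npr1-1 threshold but not the Col-0 band gave values to set beside these. Of the 259 genes with a Col-0 difference above 0.4, 21.6% were higher in npr1-1 over both treatments and 48.3% lower. Of the 68 with a Col-0 difference below −0.4, 14.7% were higher and 55.9% lower. In the mirror set of 126 genes, flat in Col-0 and at least 1 higher under the npr1-1 SA label, 67.5% were higher and 21.4% lower. The members thus had 32.1% and 36.4% on a share of calls (68.5%) close to that of the first 2 sets (69.9% and 70.6%). The difference between these sets was not tested, as their genes share the same arrays.

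Chromosomes 1 to 5 held 48, 29, 30, 32 and 45 members, or 1.41%, 1.34%, 1.1%, 1.65% and 1.51% of the genes measured there. The order of protein-coding genes in assembly TAIR10.1 placed 183 members, and in 8 pairs the members lay within 5 protein-coding genes of each other, and in 2 of these they were direct neighbours. AT5G52750 and AT5G52760, the first such pair, had label differences of −1.92 and −3.64 and were both called lower (−0.47 and −0.42). AT5G19240, with values of 7.79 to 9.57 among the brightest members, and AT5G19250 beside it had label differences of −1.65 and −1.83 and were not called (−0.07 and 0.14). SBT3.5 and SBT3.3 were 2 genes apart and had different calls, as given above. SGT1A and AT4G23610 were 4 genes apart, with label differences of −1.70 and −3.0.

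Of 44 gene lists, 6 held a member. Some lists matched no gene and could hold none, such as those for receptor-like kinases, intracellular immune receptors, protein phosphatases and MAP kinases. PIA1, a phosphatase described above, was thus in no list. The list for ERF and AP2 factors was matched by keyword and took in unrelated genes. A list without a member therefore does not show that the members lack such genes. A listed gene counts as measured here where its symbol or a synonym matched a probe set with 1 gene listed. As 8730 of 22746 probe sets had no gene listed in the annotation used, other listed genes may be on the array unrecognised. Pattern-triggered immunity had 5 of its 57 genes measured, all 5 lower in npr1-1 (median −1.18), and PUB24 was the member among them. ER protein folding and secretion had 6 of 47 measured, 1 higher, 2 lower and 3 not called (median −0.15), with ATERDJ3B and DER1 as members. Heat shock had 3 of 33 measured, of which Hop3 is the member (1 higher, 2 not called). UDP-glycosyltransferases, a list matched by keyword with 45 genes measured, had 8 higher and 15 lower, UGT76D1 being the member. The lists for calcium signaling, with CML30, and for ubiquitin and the proteasome, again with PUB24, were likewise matched by keyword. These 2 lists also took in unrelated genes, so no count is given for them. Over all genes the median was 0.00 and 33.8% passed. SA signaling had 5 of 44 genes measured in this sense and no member among them. With so few of each list measured, these counts describe the measured genes and not the pathways.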

How the data were processed

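The values were log2 expression values per probe set, deposited by the authors. GCOS followed by RMA in affylmGUI is the route in the methods, whereas Affymetrix Expression Console is the tool in the submitters' processing notes. Versions are not given in the sources used here. Background correction and normalization between arrays can compress low values and their differences, and detection calls were not used. Apart from this, the number of arrays (8, with 2 per group) limits the precision. No array was left out and 64 control probe sets were.

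Names came from the platform annotation and from the gene table of TAIR10.1. Of 22746 probe sets, 13513 had 1 gene, 503 several and 8730 none listed, and the first gave 13356 genes. Group means were fitted to all 8 arrays with limma 3.58.1 (eBayes without trend) in R 4.3.3, with the contrast of npr1-1 and Col-0 over both treatments, two-sided, and Benjamini-Hochberg adjustment over all probe sets. Only the fit of this contrast was tried on simulated data, with shifts added to the npr1-1 arrays. The rule and the other steps were not.

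Replicate numbers did not pair the samples. Deviations of same-numbered arrays from their group means correlated at −0.19 to 0.08, with none of 6 pairs of groups above 0.1. Named genes were the 12 members with the largest label difference, the 8 with the smallest p in each direction, up to 4 members per gene list, and 3 genes on each side of each threshold. Members with a symbol and neighbouring members were added after their values were seen. The members and the gene lists (17 by symbol, 27 by keyword in symbols and synonyms) were chosen with earlier results of these data known. Alternatives were a replicate block, quantile normalization, median centring (2 scalings), a variance with trend and robust fit, no moderation, dropping the 25% of probe sets with the lowest means, and leaving out each array.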

Additional observations from a re-analysis of the deposited data

How the results depend on the processing

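Among the 63 named genes, no alternative turned the direction of one that was called. With the replicate number as a block, 8444 probe sets (8594 without it), 59 higher and 66 lower members were called, and the block moved no count by over 1.5 times. Without moderation the higher members numbered 38 (59 with it) and the higher probe sets on the array 3312 (4847 with it), and of the genes with a symbol or a large label difference, QQT2, PIA1, KEU, PMM, AT4G23610, AT5G22530 and AT4G17670 lost their calls (adjusted p of 0.0564 to 0.217). With thresholds of −1.5 and 0.2, chosen after the values were seen, 28 genes met the rule (11 higher, 14 lower), and with −0.8 and 0.5 they were 369 (120 higher, 119 lower). Leaving out each array in turn gave 7500 to 8069 called probe sets, 49 to 59 higher and 59 to 68 lower members among the 184, and 171 to 203 genes that met the rule, of which 156 to 172 were among the 184. Quantile normalization gave 171 such genes and median centring 190, with 157 and 172 among the 184. Of 882 values of 63 named genes under the alternatives, 803 kept direction and call, 54 lost the call, 6 gained it and 19 changed sign. All sign changes were in members not called. ATSYTF (AT3G18370) was at −0.088 after quantile normalization, −0.081 after centring and −0.14 to 0.16 on leaving out an array. AT3G58550 was at −0.030 after centring and −0.0031 to 0.13 on leaving out an array, and AT3G58600 at −0.011 and −0.024 to 0.19. On leaving out an array, DER1 (AT4G29330) ran from −0.14 to 0.064, Hop3 (AT4G12400) from −0.20 to 0.053 and SBT3.3 (AT1G32960) from −0.065 to 0.056. The cause of these changes was not tested. With 2 arrays per group and no detection calls, differences of low members have no known background.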

Other observations

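The rule also held for probe sets outside the 184 genes. Over all 22746 probe sets 339 met both thresholds, of which 186 had 1 gene listed, 2 had several and 151 had none listed in the annotation used. Of the 151, 45 were higher (29.8%) and 66 lower (43.7%) in npr1-1 over both treatments (limma, adjusted p of 0.05), against 21.3% and 16.5% of all probe sets. They are unnamed here and were not examined further. The 3 probe sets of AT2G27900, a member, differed. The 2 dimmer ones had npr1-1 label differences of −0.64 and 0.04. Their group means were at most 1.04 and 0.37, near the bottom of the scale, where a difference of −1 has little or no room.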
